A study of Mus musculus with 12 samples.

Results

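Cluster 5 of the injured hepatocytes that the study named InjuredHeps2 comprised 389 of 6573 annotated mouse hepatocytes. Its cells were taken from the deposited cell annotation as those with the cell type name InjuredHeps2 and the cluster number 5, and every cell of cluster 5 carried that name. The other cluster of InjuredHeps2, cluster 2, held 567 cells. Values per gene were not used here. The name could therefore not be checked against Alb, which encodes the main plasma protein made by hepatocytes, Cyp2e1, a cytochrome P450 of the pericentral zone, or Cyp2f2, a cytochrome P450 of the periportal zone. The results below are numbers of cells and positions on the map that the study deposited.

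Hepatocytes take up and detoxify compounds from the blood, make plasma proteins and secrete bile. DDC is a compound given in the diet that disturbs heme synthesis, so that porphyrin builds up and plugs small bile ducts. Under such injury some hepatocytes turn on Sox9, which encodes a transcription factor typical of biliary cells, and become liver progenitor-like cells (LPLCs). The study named cells around this state PreLPLCs, LPLCs, PostLPLCs1 and PostLPLCs2, and set them beside NormalHeps, InjuredHeps1, InjuredHeps2 and ProliHeps, the last being a name for proliferating hepatocytes.

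Each of the 10X droplet libraries pooled hepatocytes of 2 Rosa26-mTmG mice on normal diet, whose cells carry a red membrane reporter, and 2 WT mice after 7 days of DDC, on a C57BL/6J;129S6/SvEvTac background. One such pool had CLO treatment, an abbreviation left unexplained in the labels, and the other had none. The Smart-seq2 libraries came from Sox9-EGFP mice, in which GFP marks cells that use Sox9, on an FVB/N;129S6/SvEvTac background (129S7 in the tag of day 7 replicate 3). Of these, 3 libraries were of day 7 of DDC, 2 of mixed days 3 and 7, 1 of mixed days 0 and 7 and 1 of day 0. Another 2 libraries, of day 3 alone, had no cells in the annotation and were not analysed here. Hepatocytes of injured livers in this set had been sorted on size, granularity and GFP. The titles give 1 mouse for all normal diet of this kind, which is thus the mouse of the library labelled day 0. They give 2 mice for all DDC libraries of this kind and tie neither to a library. Diet and genotype went together in the 10X pools, and neither is recorded for single cells in the annotation used. The number of cells was 1446 in the CLO pool, 4800 in the pool without CLO and 26 to 82 in a Smart-seq2 library. Depth per cell was not analysed here, and the precision given is that of cell counts. The 10X pools shared 1 cell barcode, and no cell of cluster 5 carried it.

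Cluster 5 was found in both 10X pools and in 4 of 7 Smart-seq2 libraries. In the CLO pool it made up 7.05% of 1446 cells (exact 95% interval 5.79 to 8.50). In the pool without CLO it made up 257 of 4800 cells, or 5.35% (4.73 to 6.03). The share was 1.32 times as high with CLO (1.06 to 1.64). In the order of this ratio cluster 5 stood at rank 12 of 25 clusters, between the LPLC cluster 7 at 1.87 and the PreLPLC cluster 13 at 1.16. Each arm was 1 pool in its own batch, so no test was possible. The share of normal-diet cells in each pool is not recorded. CLO, batch and the mix of diets within a pool therefore cannot be told apart in this and the following pool ratios. All intervals cover counting error only.

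The small difference between the pools depended on which cells it was set against. The number of cluster 5 cells per 100 NormalHeps was 27.8 with CLO and 21.5 without. Per 100 cells of the 4 LPLC stages it was 14.7 with CLO and 15.5 without, a ratio of 0.95. Per 100 LPLCs it was 91.9 with CLO and 130.5 without, while per 100 PreLPLCs it was 217 with CLO and 190.4 without. The stages after the LPLC went opposite ways, with 21.3 cluster 5 cells per 100 PostLPLCs1 with CLO and 46.6 without, and 182 per 100 PostLPLCs2 with CLO and 33.0 without. InjuredHeps1, of which the CLO pool held 18 cells and the other pool 965, weighed on these shares. With InjuredHeps1 removed from both pools the ratio of the cluster 5 share was 1.07 (0.854 to 1.33), an interval that includes 1. With NormalHeps removed instead the ratio was 1.33. Other types were uneven too, such as PostLPLCs1 with 480 cells in the CLO pool and 552 in the other. The ratio without them was not computed, so the value of 1.07 holds for the removal of InjuredHeps1 only.

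Within InjuredHeps2 the balance of the clusters differed more than the share of the whole. Cluster 5 made up 65.8% (57.8 to 73.2) of the 155 InjuredHeps2 cells with CLO and 33.5% (30.2 to 37.0) of the 767 without CLO, a ratio of 1.96 (1.69 to 2.28). There were 192 cells of cluster 5 per 100 cells of cluster 2 with CLO and 50.4 without. The intervals of the shares did not overlap. Cluster 2 was the part of InjuredHeps2 with the lower share under CLO, at 3.67% of all cells with CLO and 10.6% without.

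**Figure D1:**
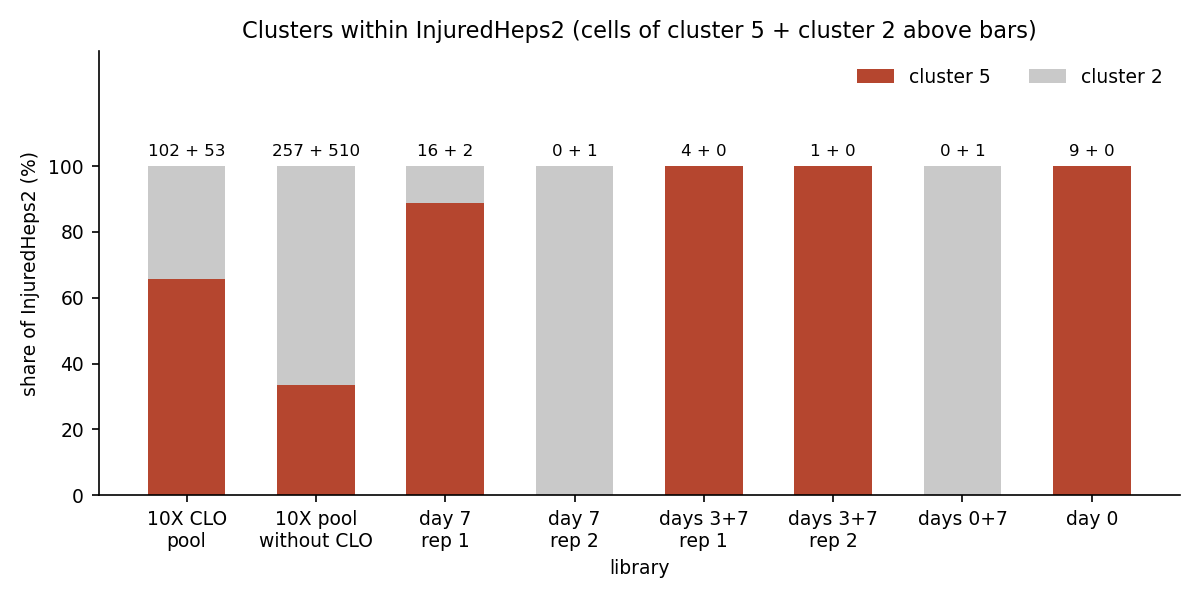
Share of InjuredHeps2 cells in cluster 5 and in cluster 2 (%) for each library with any InjuredHeps2 cell, with the numbers of cells above the bars. Cluster 5 held 65.8% in the CLO pool and 33.5% in the pool without CLO, and the Smart-seq2 bars rest on 1 to 18 cells each.

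Smart-seq2 cells were 30 of its 389 cells, or 7.71% (5.26 to 10.8), against 4 of 567 cells of cluster 2, or 0.705% (0.193 to 1.80). They were 4.97% of all annotated hepatocytes. The share in cluster 5 depended on day 7 replicate 1, which gave 16 of the 30 cells. Without that library it was 14 of 373 cells, or 3.75% (2.07 to 6.22), against 3.77% of all hepatocytes and 2 of 565 cells of cluster 2.

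Among Smart-seq2 libraries of day 7, cluster 5 was found in replicate 1 only. It made up 16 of 82 cells there, or 19.5% (11.6 to 29.7). It was at 0 of 47 cells in replicate 2 and 0 of 45 cells in replicate 3, with exact upper bounds of 7.55% and 7.87%. The day 0 library, from a mouse on normal diet, held 9 cells of cluster 5 among 43, or 20.9% (10.0 to 36.0). All 9 InjuredHeps2 cells of the day 0 library were of cluster 5. The interval of day 7 replicate 1 and that of the day 0 library overlapped, although the name of the cluster refers to injury. The annotation gives the cells of the library labelled day 0 a set name of 1 week of DDC, so that label and annotation differ for it.

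The day 7 libraries averaged 6.50% ± 11.3 (SD over n = 3 libraries, which came from at most 2 mice) against 20.9% at day 0, a difference of -14.4 percentage points, with all day 7 members in 1 library. Without replicate 1 the day 7 share was 0 and the difference was -20.9 points. No test was made with a single day 0 library. The libraries of mixed days 3 and 7 held 4 of 39 cells in replicate 1, or 10.3% (2.87 to 24.2), and 1 of 26 cells in replicate 2, or 3.85% (0.0973 to 19.6). The library of mixed days 0 and 7 held 0 of 45 cells, with an exact upper bound of 7.87%. By the titles its normal-diet cells came from the same mouse as the day 0 library, and 18 of its cells were NormalHeps.

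Batch moved with these shares. In batch 2, made of day 7 replicate 1 and both libraries of mixed days 3 and 7, cluster 5 made up 21 of 147 cells, or 14.3% (9.07 to 21.0), and was found in 3 of 3 libraries. In batch 1, which held the other 4 libraries, it made up 9 of 180 cells, or 5.0% (2.31 to 9.28), all of the day 0 library. Within batch 1 the difference between day 7 and day 0 was -20.9 points. Batch 2 held no library of day 0 alone and gave no such value. The part of the batch and of the sort by size and GFP in these shares was not tested.

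**Figure D2:**
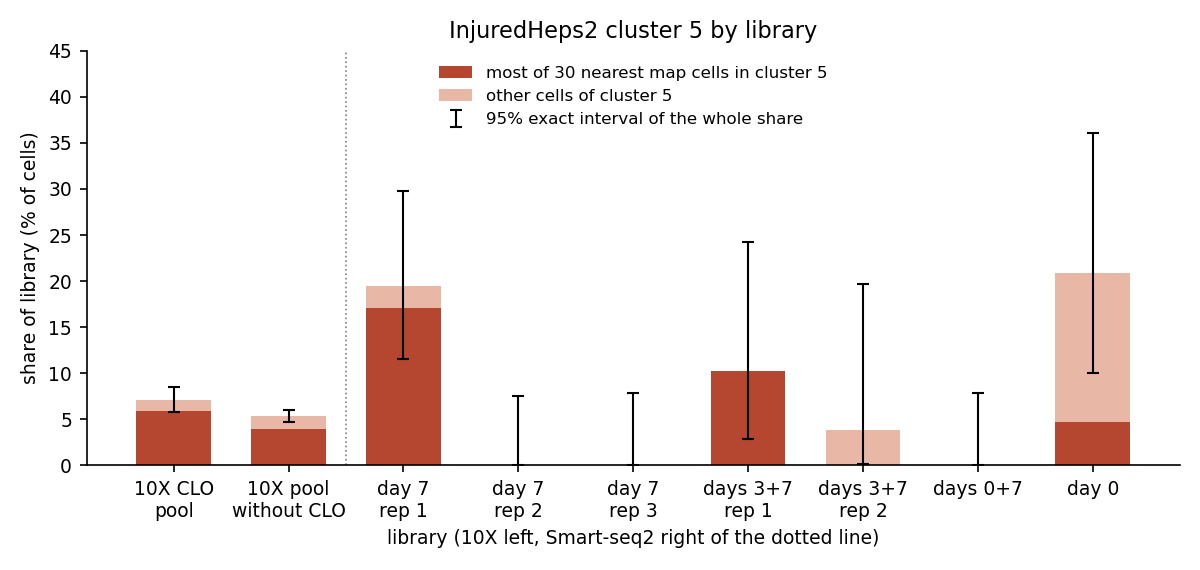
Share of each library's cells in cluster 5 (%), with exact 95% intervals of the whole share. Dark bars are cells with most of their 30 nearest map cells in cluster 5 and light bars the other cluster 5 cells; the day 0 share of 20.9% is mostly light, and that of day 7 replicate 1, 19.5%, mostly dark.

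Most of the day 0 members lay apart from most other members on the map. The map is a UMAP, a layout in which cells with similar profiles lie close together; its axes have no unit, and it rests on the same data as the clusters, so that what follows is a description. Most of the 30 nearest cells belonged to cluster 5 for 85 members in the CLO pool (83.3%), 188 of 257 in the pool without CLO (73.2%), 14 of 16 in day 7 replicate 1 (87.5%) and 4 of 4 in the first library of mixed days 3 and 7. In the day 0 library this held for 2 of 9 members (22.2%). The single member in the second library of mixed days 3 and 7 also lay apart, at 7.80 from the median position of cluster 5 and with no other member among its 30 nearest cells.

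The other 7 cluster 5 cells of the day 0 library lay together at 5.12 to 5.48 on axis 1 and 1.06 to 1.12 on axis 2. Their distance from the median position of cluster 5 was 5.87 to 6.20, while the median over the 389 members was 0.798. Each of these 7 cells had 21 to 26 NormalHeps and 3 to 8 cluster 5 cells among its 30 nearest. The remaining pair of day 0 cells lay at 0.109 and 0.354 from the cluster's median position and had 26 and 27 cluster 5 cells among the 30 nearest. The 16 cells of day 7 replicate 1 lay at a median distance of 0.617, with 3.52 as the largest, and none had more than 3 NormalHeps among its 30 nearest.

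Counted by cells with mostly cluster 5 neighbours, the shares were 17.1% in day 7 replicate 1, 0 in replicates 2 and 3, and 4.65% in the day 0 library. The day 7 minus day 0 difference then became 1.04 points, with 2 of 16 members of day 7 replicate 1 and 7 of 9 members of the day 0 library left out. Its sign rested on replicate 1 alone, which was of batch 2, while the day 0 library was of batch 1. In replicates 2 and 3, of batch 1, the share stayed below that of day 0.

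**Figure D3:**
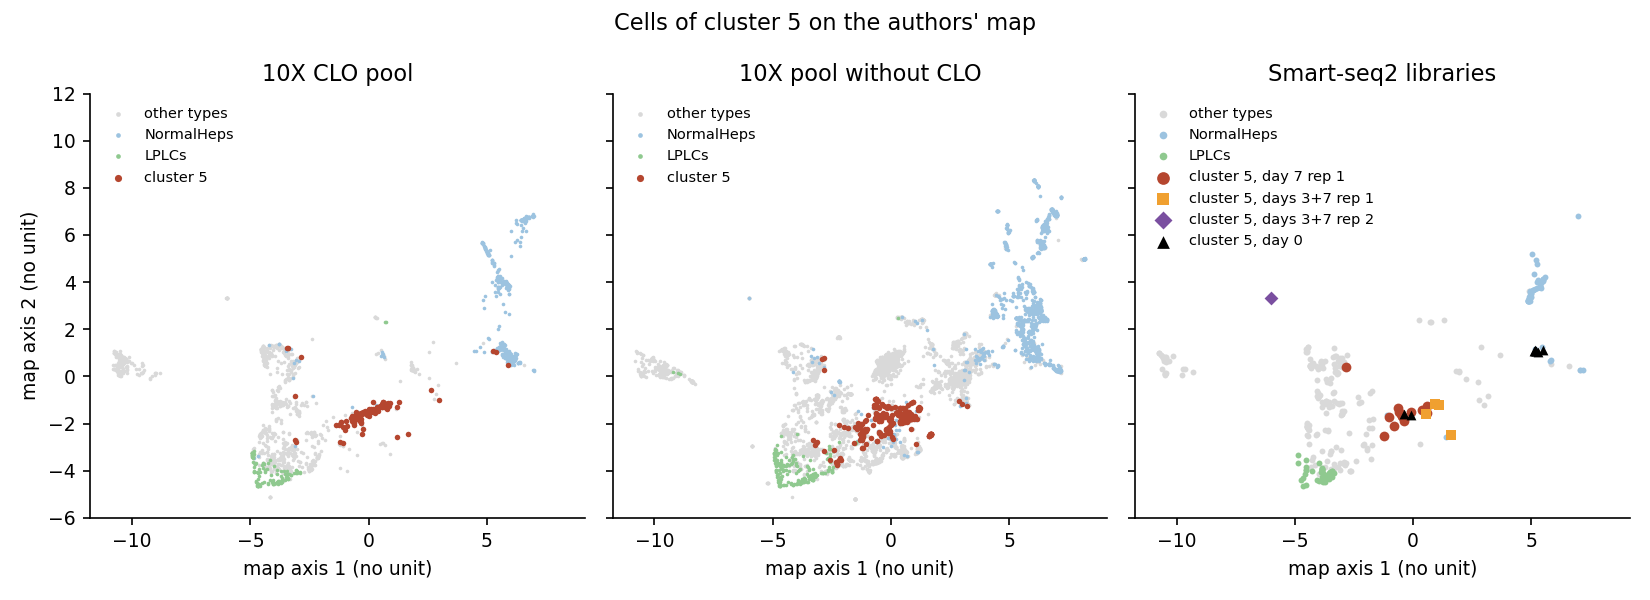
Positions of cells on the authors' map (axes without unit) in the CLO pool, the pool without CLO and all Smart-seq2 libraries, with cluster 5 over NormalHeps, LPLCs and the other types. Most cluster 5 cells form a patch near 0 on axis 1, while 7 of 9 day 0 cells, drawn as overlapping triangles, lie near 5 on axis 1, at the edge of the NormalHeps.

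In the 10X pools the cells outside the patch lay elsewhere. Of the 69 such members in the pool without CLO, the commonest other type nearby was cluster 2 of InjuredHeps2 for 21, PreLPLCs for 19, ProliHeps for 16, PostLPLCs1 for 10 and InjuredHeps1 for 3, and NormalHeps for none. Of the 17 in the CLO pool it was PostLPLCs1 for 6, cluster 2 for 4, NormalHeps for 3, InjuredHeps1 for 2, and PreLPLCs and ProliHeps for 1 each. For all 7 of the day 0 library it was NormalHeps.

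Cluster 5 was of middling tightness on the map. On average 66.6% of the 30 nearest cells of a member were members too, which put it at rank 15 of 25 clusters, next to cluster 2 at 68.5%. The single LPLC cluster stood at 73.1% and the PreLPLCs at 64.4%. Cells with most of their 30 nearest in their own cluster were 75.3% of cluster 5 and 69.0% of cluster 2. They were 75.9% of the LPLC cluster and 68.1% of the PreLPLCs, so the order depended on the measure. Among the 389 members, 8 had no other member among their 30 nearest cells.

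The types around cluster 5 were counted among the 15 nearest cells outside it, within each pool. Members share neighbours, so the 1530 neighbours in the CLO pool were 159 distinct cells and the 3855 in the pool without CLO were 405. Cluster 2 of InjuredHeps2 was over-represented in both pools. It made up 17.3% of the neighbours against 3.94% of all cells outside cluster 5 with CLO, and 24.9% against 11.2% without CLO. PreLPLCs, the cells named as preceding the progenitor-like state, were 5.82% of neighbours against 3.50% with CLO, or 16.8% with the 50 nearest cells, and 5.60% against 2.97% without. InjuredHeps1 differed between the pools, with 9.87% of neighbours against 1.34% of cells with CLO and 13.8% against 21.2% without. Its neighbours in the CLO pool were 9 cells counted repeatedly.

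LPLCs themselves were nearly missing around cluster 5. They made up 0 of 1530 neighbours in the CLO pool, where they were 8.26% of the cells outside the cluster. In the pool without CLO they made up 0.623% of 3855 neighbours, where they were 4.34% of such cells. ProliHeps were at 0 in the CLO pool against 15.8% of cells, but at 4.23% against 4.67% without CLO. The latter were 9 distinct cells counted repeatedly, near 28 of 257 members. PostLPLCs1 were at 31.0% against 35.7% with CLO and at 11.5% against 12.2% without, and with the 50 nearest cells they were at 19.5% in the CLO pool. PostLPLCs2 were at 7.39% against 4.17% with CLO, or 17.0% with the 50 nearest cells, and at 14.3% against 17.1% without.

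**Figure D4:**
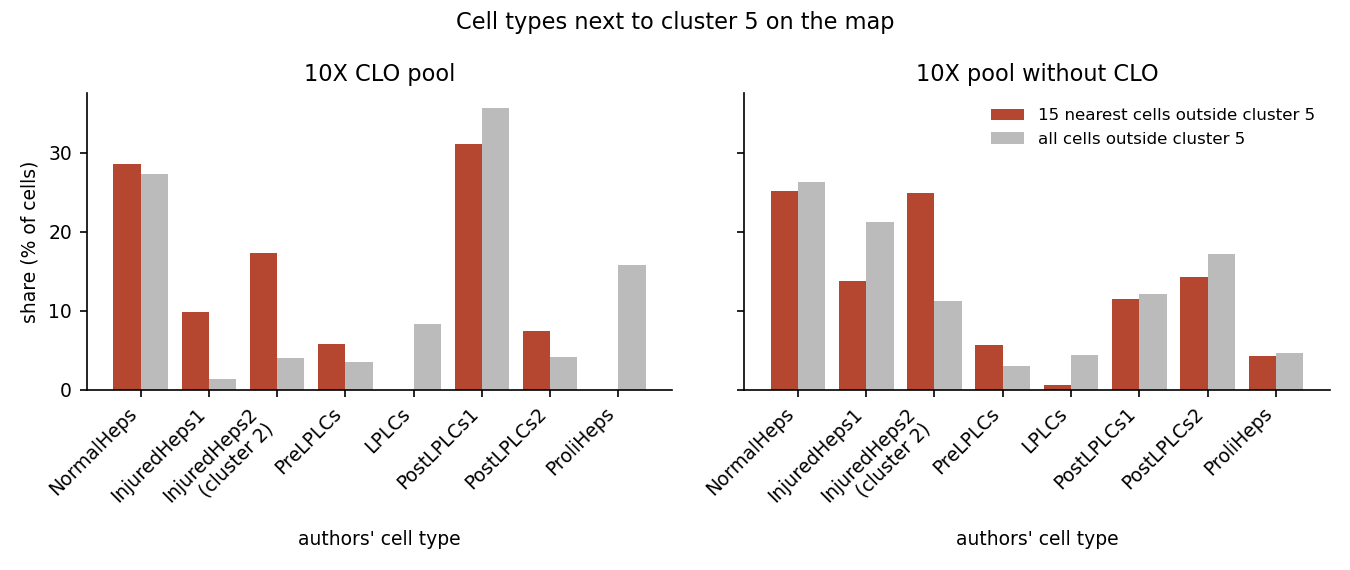
Share of each cell type (%) among the 15 nearest cells outside cluster 5 and among all cells outside cluster 5, in the CLO pool and the pool without CLO. Cluster 2 of InjuredHeps2 exceeds its share of the pool in both, and LPLCs fall below theirs; NormalHeps stand at 28.6% against 27.3% with CLO, a value that fell to 14.5% with the 50 nearest cells.

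NormalHeps made up 28.6% of the neighbours against 27.3% of such cells with CLO and 25.1% against 26.3% without. In the CLO pool this depended on the number of neighbours, and with the 50 nearest cells NormalHeps were 14.5%. Counted with repeats, nearly all of them were of 1 of the 8 NormalHeps clusters, cluster 0. It gave 26.3% of all neighbours against 4.09% of cells with CLO, and 25.1% against 14.0% without CLO. These neighbours were few cells counted many times, 20 distinct cells of cluster 0 in the CLO pool and 33 in the other. In the CLO pool the NormalHeps neighbours were 46 distinct cells, so most of them were not of cluster 0 but of cluster 12. Cluster 12 gave 2.29% of all neighbours there. By median position cluster 0 lay far off, at rank 16 of 24 clusters by distance, and by the distance to its nearest cell it came first. Single cells of cluster 0 were thus spread into the patch. The share of cluster 0 around each cluster was also ranked among the 17 clusters other than NormalHeps. Without CLO this trait was not particular to cluster 5, which stood at rank 4, with cluster 2 at 25.1%. With CLO cluster 5 stood at rank 2, behind only cluster 19, which had 1 cell. There cluster 6 of PostLPLCs1 was at 18.4% and cluster 2 at 1.38%.

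By median position over all libraries, the nearest clusters were cluster 2 of InjuredHeps2 at a distance of 1.5, cluster 1 of PostLPLCs2 at 2.20 and the PreLPLC cluster 13 at 2.30. The place of the PreLPLCs depended on the measure, since by distance to the nearest cell cluster 13 stood at rank 10. The LPLC cluster 7 lay at 4.69 and stood at rank 13. The order differed between the pools. In the pool without CLO cluster 2 came first at 1.42. In the CLO pool cluster 17 of InjuredHeps1 came first at 1.68, with 6 cells, and cluster 2 stood at rank 7 at 3.16.

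The pools were unevenly mixed inside cluster 5. CLO cells were 28.4% of its 10X members, but on average 51.0% of the 15 members nearest to a CLO member and 17.9% of those nearest to a member from the other pool. The median position of the members was -0.15 on axis 1 and -1.53 on axis 2 with CLO, and -0.0032 and -1.81 without, a distance of 0.317 on the map.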

How the data were processed

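Values come from the deposited annotation of single hepatocytes, which gives library, platform, batch, cell type, cluster and a map position for each cell. The map positions are a score without unit, made by the authors with the libraries integrated, per the file headers. The submitters' processing notes name the mouse build mm10 and, among other tools, Seurat 4.0.1, STAR 2.5.2b and Cell Ranger 6.0.1, with no roles. How cells were filtered and doublets treated was not stated in these sources. Integration can place unlike cells of separate libraries in one cluster. Groups followed the labels; the deposited table's set name gives 1 week for all Smart-seq2 cells, the day 0 library included.

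Shares carry exact Clopper-Pearson 95% intervals and ratios Katz log intervals. Where no cell was found, the upper bound of the exact interval is given. Nearest cells were found by straight distance on the map, 30 over all libraries or 15 within a pool, and ties in the commonest type went by alphabet. No test was run, since an arm was 1 library and map and clusters share their data. Clusters holding at least 1% of a 10X pool could be named. The comparison of gene levels in the design was not run. The cells, lists and alternatives were chosen with earlier results of these data known. Scripts ran in Python 3.11.15 with scipy 1.17.1, numpy 2.4.6, matplotlib 3.10.9 and pandas 2.3.3.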

Additional observations from a re-analysis of the deposited data

How the results depend on the processing

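Of 45 alternative values, 32 stayed within the counting interval or 1 SD of the reported one, 12 moved and 1 changed sign. Ranks have no such interval, and all those tried changed and are among the 12. The SD of the day 7 shares, 11.3, is so wide that leaving out 1 day 7 library stayed within it. The pool ratio of 1.07 without InjuredHeps1 also counted as staying, though its own interval includes 1. The sign change was the day 7 minus day 0 difference, 1.04 points among cells with most of their 30 nearest in cluster 5. It rested on day 7 replicate 1 alone. Over all members, leaving out each day 7 library gave -20.9 to -11.2. With cells kept only where most of the 30 nearest were of their own cluster, the pool ratio of cluster 5 within InjuredHeps2 was 2.71. Both restrictions were chosen after seeing the data, as were batch 1 alone and the Smart-seq2 share of cluster 5 without day 7 replicate 1. That share was 3.75%. With 50 nearest cells in the CLO pool, neighbours were 14.5% NormalHeps, 16.8% PreLPLCs, 19.5% PostLPLCs1 and 17.0% PostLPLCs2, and CLO cells were 23.3% of the members near a cell without CLO; the cause was not tested. By distance to the nearest cell, ranks were 2 for cluster 2, 3 for cluster 1, 10 for cluster 13, 15 for cluster 7 and 1 for cluster 0; that measure follows single spread cells. Gene-level alternatives were not run. Small numbers of cells limit the Smart-seq2 shares, and day 7 libraries differed by more than counting error. No paired analysis was possible because replicate numbers follow accession order and name no shared animal.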

Other observations

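Cells of other clusters also lay inside the cluster 5 patch. Most of the 30 nearest cells were of cluster 5 for 86 cells that the study put elsewhere. Of these 30 were NormalHeps, all of cluster 0, 15 were of cluster 2, 14 were InjuredHeps1, 13 each were PostLPLCs1 and PostLPLCs2, and 1 was a PreLPLC. None of 348 LPLCs and none of 448 ProliHeps lay there. In the CLO pool 6 of 55 cluster 0 cells did (10.9%), and in the pool without CLO 22 of 634 (3.47%).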
